A study of Mus musculus with 12 samples.

Results

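The nuclear-encoded subunits of the mitochondrial respiratory chain were followed across 12 RNA libraries of the mouse ovarian cancer line HM1 and its tumors. A gene belonged to the set when its listed name began with Nduf and one of the letters a, b, c, s or v before a number, was Sdha, Sdhb, Sdhc or Sdhd, or began with Uqcr, Atp5 or Cox with a number from 4 to 8. It also needed a group mean of at least 1 TPM, the number of its transcripts per 1000000 after correction for length, in at least 1 of the 4 groups. Of 104 matching names, 13 marked as pseudogenes were dropped and 8 lay below the minimum, which left 83 genes of the 55416 gene identifiers that all tables share. Complex I contributed 39 of them, complex II 4, complex III 8, complex IV 15 and complex V 17, where the gene name sets the complex. Of the 8 genes below the minimum, Ndufb11b, Cox6c2, Cox7b2 and a second identifier of Atp5o were listed at 0 throughout. The highest group means of the other 4 were 0.123 TPM for Ndufs6b, 0.15 TPM for Cox8c, 0.237 TPM for Ndufa11b and 0.357 TPM for Cox8b. Just inside the minimum were Cox6b2 at 1.97 TPM and Cox6a2 at 2.46 TPM. The minimum was met in all 4 groups by 79 members. Ndufa4l2, Cox4i2 and Cox6b2 met it in tumor groups alone, so the rule itself made them higher in tumors, and Cox6a2 met it in some groups of both tissues.

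The respiratory chain sits in the inner mitochondrial membrane. Complex I takes electrons from NADH and complex II takes them from succinate, complex III passes them from ubiquinol to cytochrome c, and complex IV hands them to oxygen. The pumping of protons by complexes I, III and IV drives complex V, which makes ATP. Most subunits are encoded in the nucleus, while a core of complexes I, III, IV and V is encoded by the mitochondrial genome, so that both genomes supply parts of one machine. Tumor cells are known to vary widely in how far they rely on this chain or on glycolysis.

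Total RNA was sequenced from 4 groups of 3 libraries. They were cultured HM1 cells with a control short hairpin RNA, cultured HM1 cells with a hairpin against St3gal3, and tumor tissue from each of these lines. St3gal3 encodes a sialyltransferase, which adds sialic acid to glycans, and the study set knockdown against control in each setting. All 12 libraries therefore carried a hairpin, and no library of HM1 cells without one was used. The labels call the control wild type. They do not say whether the knockdown line was a single clone, which mice or sites carried the tumors, or whether each library was made from its own dish or mouse. The p-values therefore measure the spread between these libraries, which may be technical. The tables hold TPM, which keep no record of sequencing depth, so depth is unknown and the number of libraries limits the precision.

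St3gal3 was checked first. It was listed at 9.59, 12.5 and 12.9 TPM in control culture and at 1.52, 1.25 and 1.83 TPM with the knockdown hairpin. In tumors the values were 14, 15.4 and 15.4 TPM with the control hairpin and 7.28, 5.87 and 5.76 TPM with the knockdown hairpin. The groups did not overlap in either setting. The log2 difference was -2.32 in culture (limma adjusted p = 0.00689) and -1.13 in tumors (limma adjusted p = 0.00954). Markers of leukocytes (8 genes) summed to 13.2 to 18.0 TPM in culture and 856 to 1203 TPM in tumors, so the tumor libraries held host cells. Epithelial markers of HM1 (6 genes) summed to 4567 to 5051 TPM in culture and 2556 to 3431 TPM in tumors. The keratins Krt8, Krt18 and Krt19 made up nearly all of this sum, Epcam and Cldn4 were at most 0.50 and 0.07 TPM, and Msln was higher in tumors (log2 difference 1.68 with the control hairpin). In such bulk samples, fewer cells of a type and less RNA per cell cannot be told apart.

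The subunits were abundant and their levels were close between libraries of a group. Together they took 2.10% ± 0.0725 (SD, n = 3) of all TPM in control culture and 2.10% ± 0.106 (SD, n = 3) in knockdown culture. The share was 1.76% ± 0.0331 (SD, n = 3) in control tumors and 1.87% ± 0.0729 (SD, n = 3) in knockdown tumors, and every tumor library lay below every culture library. The median member stood at 169 TPM over the 12 libraries, and 75 of the 83 averaged at least 50 TPM. Among members with a group mean of at least 50 TPM, the median coefficient of variation within a group ranged from 5.32% to 6.71%. The 13 subunits encoded by the mitochondrial genome took 2.93%, 2.80%, 2.86% and 3.17% of all TPM in control culture, knockdown culture, control tumors and knockdown tumors. These shares are uncertain. Over the 12 libraries mt-Atp8 alone was listed at 12216 to 17001 TPM, and mt-Atp6 at 38.3 to 320 TPM. In control culture mt-Co3 was listed at 182, 0.25 and 330 TPM.

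Each complex had a wide range of levels among its parts. Summed over its members, complex V held 6694 ± 145 TPM (SD, n = 3) in control culture, complex I 5981 ± 277, complex IV 5352 ± 215, complex III 2536 ± 85.3 and complex II 469 ± 8.18. Atp5b, the catalytic beta subunit of ATP synthase, was the most abundant member at 1081, 1238 and 1252 TPM in control culture. Cox4i1, the common form of the first nuclear subunit of complex IV, stood at 795, 743 and 722 TPM there. Uqcr10, a small subunit of complex III, stood at 804, 770 and 777 TPM. Ndufa4 was the highest by the complex I naming and stood at 675, 598 and 607 TPM. It was named for complex I and was later assigned to complex IV. Sdhd, a membrane anchor of complex II, was held within 172 and 174 TPM in the 3 control culture libraries.

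The least abundant members were of different kinds. Sdhb, the iron-sulfur subunit of complex II, averaged 92.4 TPM and Uqcrc2, a core protein of complex III, averaged 103 TPM, so these complexes had no rare part. Atp5g2, one of 3 genes for the c subunit of the ATP synthase rotor, averaged 26.6 TPM. It stood at 25.9, 21.0 and 23.0 TPM in control culture, where Atp5g1 stood at 523, 473 and 430 TPM and Atp5g3 at 708, 668 and 658 TPM. Cox6b2, known as a testis form, averaged 0.875 TPM. Ndufb4 averaged 14.6 TPM, against 110.6 to 144.5 TPM for the listed gene Ndufb4c. The 390-base Ndufb4c transcript matched part of the Ndufb4 transcript with 0 differences in the GENCODE M21 annotation, so the split of reads between the 2 genes is uncertain. Unlisted or renamed pseudogene copies of other members could share reads in the same way.

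**Figure D1:**
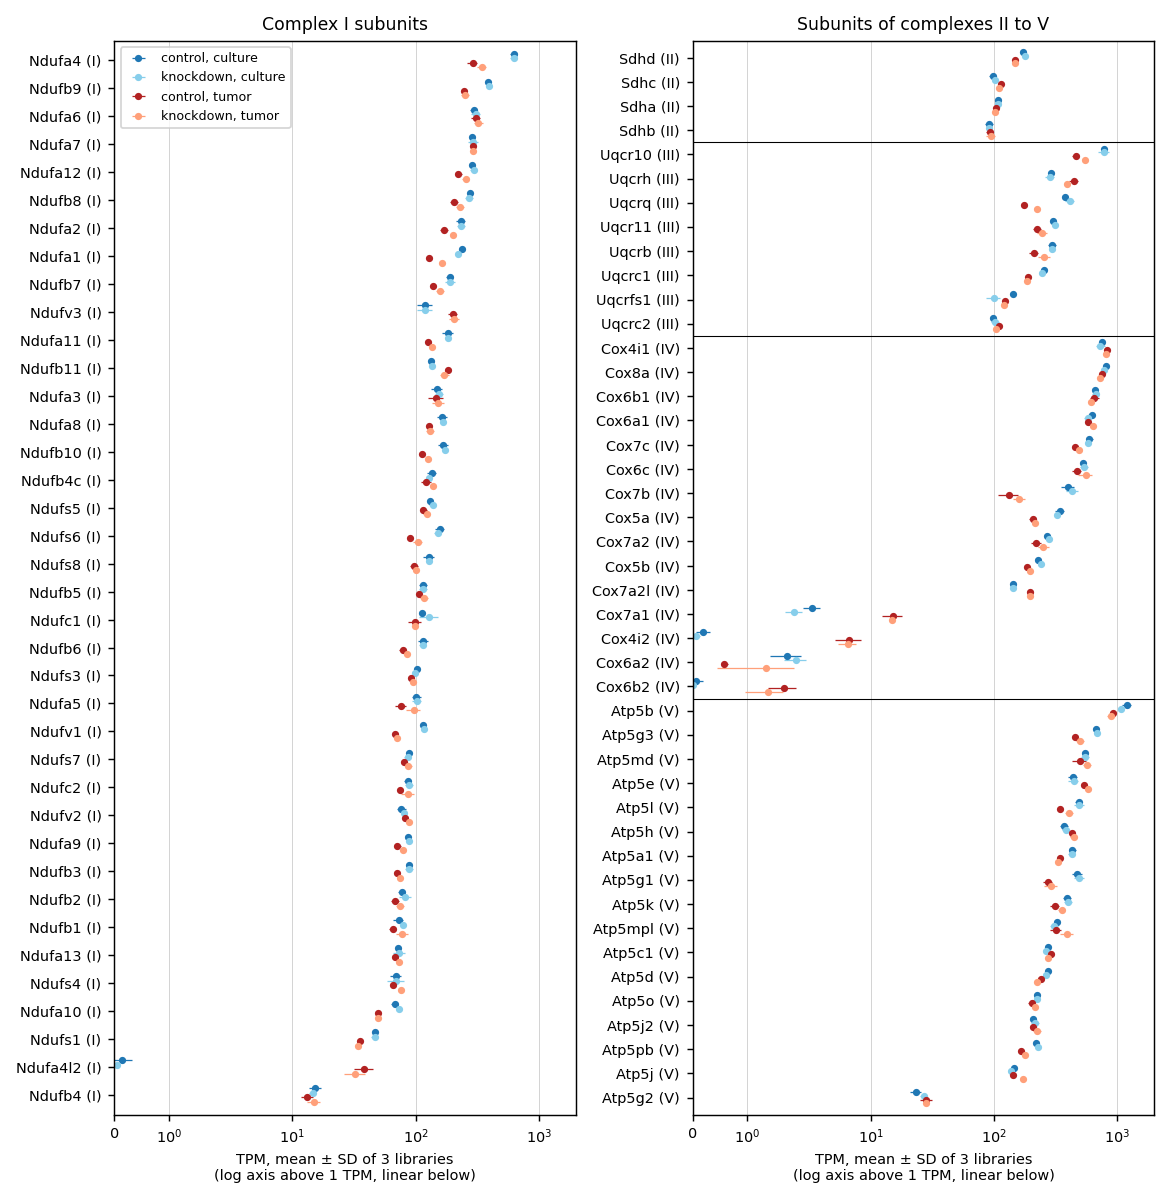
Level of 82 of the 83 subunits in TPM (horizontal axis, logarithmic above 1 TPM and linear below) by complex, as the mean of 3 libraries with its SD, for control culture (dark blue), knockdown culture (light blue), control tumors (dark red) and knockdown tumors (light red). Most members lie between 50 and 1000 TPM in every group, while Ndufa4l2, Cox7a1, Cox4i2 and Cox6b2 lie far higher in tumors than in culture.

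Promoters of these genes are known to share binding motifs for NRF1 and for ETS family factors such as GABP, so the bases before their start sites were read as background to members that moved together. RefSeq promoters of the mouse build GRCm38.p6 were listed for 67 of the 83 members. The expression tables come from another build, GRCm39 per the submitters' processing notes. Members were joined to the promoters by gene identifier where one was listed and otherwise by gene name, and the other expressed genes by name. The lines below give 60 bases each, 5′ to 3′ on the gene's strand, with an NRF1 match in capitals for 1 member each of complexes I, II, IV and V, then 2 with an ETS match in capitals, and then Cox7a1, whose 250 bases held none of the motifs searched.
Ndufs6 (chr13:73328483-73328542, minus strand, 60 to 1 bases before the start): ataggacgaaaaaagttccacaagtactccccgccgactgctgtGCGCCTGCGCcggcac
Sdhd (chr9:50603894-50603953, minus strand, 104 to 45 bases before the start): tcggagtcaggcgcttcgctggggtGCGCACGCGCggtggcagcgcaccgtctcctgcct
Cox6a1 (chr5:115349086-115349145, minus strand, 187 to 128 bases before the start): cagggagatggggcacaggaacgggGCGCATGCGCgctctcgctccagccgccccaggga
Atp5h (chr11:115420026-115420085, minus strand, 166 to 107 bases before the start): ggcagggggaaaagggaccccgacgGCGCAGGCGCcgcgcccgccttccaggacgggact
Uqcrh (chr4:116075071-116075130, minus strand, 60 to 1 bases before the start): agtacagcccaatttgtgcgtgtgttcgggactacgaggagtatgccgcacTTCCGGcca
Cox7a2 (chr9:79759993-79760052, minus strand, 199 to 140 bases before the start): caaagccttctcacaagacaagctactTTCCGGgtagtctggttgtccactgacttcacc
Cox7a1 (chr7:30184111-30184170, plus strand, 60 to 1 bases before the start): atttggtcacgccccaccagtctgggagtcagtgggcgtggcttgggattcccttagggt

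In all, 6 short motifs were searched on both strands of the 250 bases before the start, and no match of one overlapped a match of another in these 67 promoters. The NRF1 motif was found in 12 of 67 (17.9%), in 3.87% of all 27025 promoters listed and in 8.11% of the 10532 promoters matched to genes of at least 1 TPM in some group. Of the 12, 6 belonged to complex I (Ndufa11, Ndufa5, Ndufa8, Ndufb4, Ndufs5 and Ndufs6), 2 to complex II (Sdha and Sdhd), 1 to complex IV (Cox6a1) and 3 to complex V (Atp5g2, Atp5h and Atp5k). The ETS core CCGGAA was found in 19 of 67 (28.4%), against 12.3% of all promoters and 22.2% of those of expressed genes. The SP1 motif GGGCGGG was found in 19 of 67 (28.4%, against 23.6% and 42.5%), the hypoxia response core ACGTG in 14 (20.9%, against 16.5% and 21.5%) and TATAAA in 6 (8.96%, against 13.0% and 7.04%). The YY1 motif AAGATGGC was found in 0 of 67, against 1.58% of all promoters. A match describes letters in a window and says nothing of binding.

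Tumors were compared with culture within each hairpin. With the control hairpin, more subunits were lower than higher in tumors. The largest falls were of Cox7b, Ndufa4 and Uqcrq, and the largest rises were of Ndufa4l2, Cox4i2 and Cox7a1, which are forms known from particular cell types or conditions. For Ndufa4l2 and Cox4i2 the direction was fixed by the rule. The test called 13 of 83 members higher and 42 lower (limma, adjusted p under 0.05), where 39.5% of all 15407 genes tested were called higher and 24.6% lower. Most members are abundant, and of the 2843 genes of at least 50 TPM 31.5% were higher and 44.0% lower. Without the 3 members that met the minimum in tumors alone, 10 of 80 were higher and 42 lower. The values of the tumor libraries lay wholly above the culture libraries for 13 members (42.2% of all genes) and wholly below for 47 (26.3% of all genes). The 13 include Ndufa4l2, Cox4i2 and Cox6b2, whose direction was fixed by the rule. Of the 2843 genes of at least 50 TPM, 932 lay wholly above and 1284 wholly below. The median log2 difference of the members was -0.21, against 0.17 over all genes tested and -0.12 over those of at least 50 TPM. With the knockdown hairpin 13 members were called higher (35.7% of all genes) and 35 lower (27.9% of all genes), where 28.9% and 46.1% of genes of at least 50 TPM were, and 10 and 35 without the same 3 members. There, 15 lay wholly above (38.5% of all genes), the same 3 among them, and 38 wholly below (29.0% of all genes). Of the 2843 genes of at least 50 TPM, 876 lay wholly above and 1352 wholly below. The median was -0.13, against 0.08 over all genes and -0.15 over those of at least 50 TPM.

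The 2 contrasts share no library but share 1 estimate of the spread. Called higher with both hairpins were 10 members, 76.9% of each list. They include Ndufa4l2, Cox4i2 and Cox6b2, whose direction was fixed by the rule, so the agreement of these members carries no information. Called lower with both were 34, 81.0% of the control list and 97.1% of the knockdown list. Over all genes tested the calls shared were 82.4% and 91.2% of the higher lists and 91.6% and 80.8% of the lower lists. Culture and tumor tables were scaled separately by the authors and may be separate batches, which cannot be told apart from the tissue. Scaling by the median of ratios lowered the median of all genes in the control contrast from 0.17 to 0.06 and left 8 members called higher and 46 lower, with a member median of -0.32. In the knockdown contrast it left 10 higher and 30 lower.

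**Figure D2:**
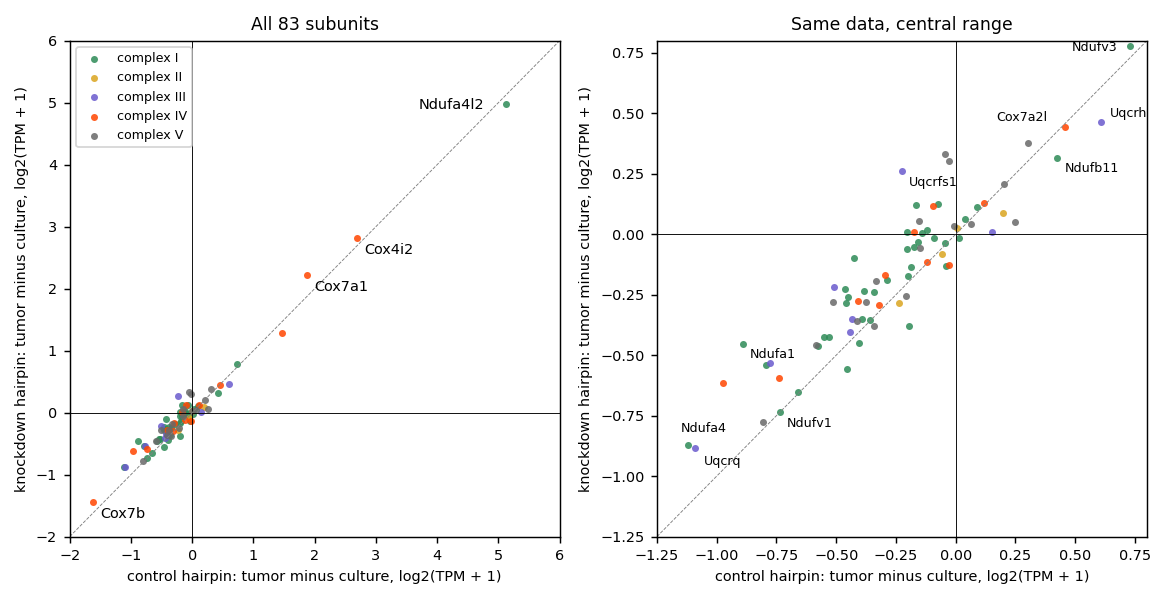
Difference between tumors and culture for each of the 83 subunits, on the log2(TPM + 1) scale, with the control hairpin (horizontal axis) against the knockdown hairpin (vertical axis), colored by complex, with all points on the left and the central range alone on the right. The dashed line marks equal differences. Ndufa4l2, Cox4i2 and Cox7a1 stand at the upper right, Cox7b at the lower left, and Uqcrfs1 is below 0 on one axis and above 0 on the other.

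Complex I, the largest of the sets, had more members lower than higher in tumors. Of its 39 genes, 3 were called higher and 21 (53.8%) lower with the control hairpin, and 3 and 19 (48.7%) with the knockdown hairpin. These shares were near the 44.0% and 46.1% lower among genes of at least 50 TPM. Among the 3 higher, Ndufa4l2 had its direction fixed by the rule. The 18 called lower with both were Ndufa1, Ndufa10, Ndufa11, Ndufa12, Ndufa2, Ndufa4, Ndufa8, Ndufa9, Ndufb10, Ndufb3, Ndufb6, Ndufb7, Ndufb8, Ndufb9, Ndufs1, Ndufs6, Ndufs8 and Ndufv1. They lay between -1.12 and -0.29 with the control hairpin. Ndufv1, which binds the flavin that accepts electrons from NADH, stood at 117, 115 and 110 TPM in control culture and at 66.2, 67.8 and 71.9 TPM in control tumors. In knockdown libraries it stood at 116, 118 and 118 TPM in culture and at 70.1, 71.7 and 69.7 TPM in tumors. Neither pair of groups overlapped. The log2 difference was -0.74 in both contrasts (SE 0.0524, limma adjusted p = 2.33e-07 and 2.13e-07).

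Ndufa1, an accessory subunit of the membrane arm that complex I needs for assembly, stood at 246, 231 and 237 TPM in control culture and at 129, 136 and 122 TPM in control tumors. With the knockdown hairpin it stood at 213, 217 and 237 TPM in culture and at 163, 172 and 156 TPM in tumors. Its tumor values lay below its culture values with either hairpin, and the log2 difference was -0.89 with the control hairpin (SE 0.0632, limma adjusted p = 2.25e-07) and -0.45 with the knockdown hairpin (SE 0.0632, limma adjusted p = 5.96e-05). Ndufs6, an accessory subunit that binds zinc and whose promoter is shown above with an NRF1 match, stood at 173, 149 and 150 TPM in control culture and at 95.5, 89.4 and 87.6 TPM in control tumors. Its log2 difference was -0.79 with the control hairpin and -0.54 with the knockdown hairpin. Ndufb11 and Ndufv3, both accessory subunits, were higher in tumors. Ndufv3 stood at 111, 109 and 138 TPM in control culture and at 181, 204 and 214 TPM in control tumors, a log2 difference of 0.73 (0.78 with the knockdown hairpin), and Ndufb11 differed by 0.42 and 0.32. Ndufs6, Ndufb11 and Ndufv3 were picked after their values were seen.

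Complex II had the narrowest range of differences, from -0.24 to 0.20 with the control hairpin. Sdha, the flavoprotein that oxidizes succinate, stood at 101, 109 and 112 TPM in control culture and at 104, 102 and 105 TPM in control tumors, and neither it nor Sdhb was called with either hairpin. Sdhd fell from 174, 173 and 172 TPM in control culture to 149, 148 and 147 TPM in control tumors. Its groups were far apart relative to their spread, although the log2 difference was only -0.24 (SE 0.0435, limma adjusted p = 0.000525). It was -0.28 in the knockdown contrast (limma adjusted p = 0.000126). Sdhc, the other anchor, was called higher with the control hairpin alone at 0.20 (limma adjusted p = 0.0297). As listed, its values of 105, 92.3 and 95.3 TPM in control culture lay below 106, 115 and 118 TPM in control tumors. Once rescaled to the shared identifiers, as in the fit, the groups overlapped. The call was lost without control culture library 2 (0.16, adjusted p = 0.108) or 3 (0.18, adjusted p = 0.0776), without control tumor library 2 (0.18, adjusted p = 0.0812) or 3 (0.17, adjusted p = 0.102) and with median-of-ratios scaling (0.08, adjusted p = 0.531). Sdhd and Sdhc are reported for these contrasts after their values were seen.

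In complex III every member was called with the control hairpin, 2 higher and 6 lower, and with the knockdown hairpin 2 were higher and 4 lower. All 8 averaged at least 50 TPM, and most genes of that level were called. Of these genes 31.5% were higher and 44.0% lower with the control hairpin, and 28.9% and 46.1% with the knockdown hairpin. Uqcrq, a small ubiquinone-binding subunit, fell from 391, 366 and 366 TPM to 174, 185 and 171 TPM with the control hairpin. With the knockdown hairpin it fell from 385, 395 and 449 TPM to 228, 233 and 209 TPM. The log2 differences were -1.09 (SE 0.0691, limma adjusted p = 8.97e-08) and -0.89 (SE 0.0691, limma adjusted p = 4.79e-07). Uqcr10 fell by 0.78 and by 0.53 on the log2 scale. Uqcrh, the hinge protein between cytochrome c1 and cytochrome c, went the other way, from 302, 280 and 281 TPM to 482, 417 and 431 TPM with the control hairpin. Its log2 difference was 0.61 (SE 0.0719, limma adjusted p = 1.63e-05), and with the knockdown hairpin 0.46 (limma adjusted p = 0.000138). Its promoter is shown above with an ETS match.

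Uqcrfs1, the Rieske iron-sulfur protein that moves electrons within complex III, was the only member called in opposite directions with the 2 hairpins. It stood at 147, 144 and 135 TPM in control culture, 114, 90.8 and 93.1 TPM in knockdown culture, and in tumors at 123, 127 and 116 TPM with the control and at 124, 118 and 117 TPM with the knockdown hairpin. The tumor groups overlapped each other, and the 2 culture groups lay on either side of them. The log2 difference between tumors and culture was -0.23 with the control hairpin (limma adjusted p = 0.0310) and 0.26 with the knockdown hairpin (limma adjusted p = 0.0161). Both calls were fragile. The control call was lost without control culture library 1 (-0.20, adjusted p = 0.0902) or 2 (-0.22, adjusted p = 0.0756), without control tumor library 1 (-0.23, adjusted p = 0.0556) or 3 (-0.19, adjusted p = 0.103) and with no filter on low genes (adjusted p = 0.0586). The knockdown call was lost without knockdown culture library 2 (0.20, adjusted p = 0.0688) or 3 (0.22, adjusted p = 0.0608), without knockdown tumor library 1 (0.23, adjusted p = 0.0548) and with median-of-ratios scaling (0.24, adjusted p = 0.0627).

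Complex IV holds both common subunits and forms restricted to some tissues. Of its 15 members, 4 (26.7%) were called higher and 6 (40.0%) lower with the control hairpin, and 4 (26.7%) each way with the knockdown hairpin. Among genes of at least 50 TPM 44.0% and 46.1% were lower. Cox4i2 and Cox6b2 among the higher members had their direction fixed by the rule. Cox7b, a small subunit close to the core, had the largest fall of all members, from 385, 361 and 449 TPM in control culture to 158, 124 and 112 TPM in control tumors. With the knockdown hairpin it fell from 396, 486 and 416 TPM to 155, 182 and 145 TPM. Its groups were far from overlapping, and the log2 differences were -1.61 (SE 0.136, limma adjusted p = 1.06e-06) and -1.44 (SE 0.136, limma adjusted p = 2.57e-06). Ndufa4 fell to 316, 293 and 262 TPM in control tumors, a log2 difference of -1.12 (SE 0.0844, limma adjusted p = 3.75e-07), and by 0.87 with the knockdown hairpin. Cox5a, an early subunit of the complex, fell by 0.74 and by 0.59 and was picked after its values were seen. Cox4i1, at 810, 833 and 828 TPM in control tumors, was not called, nor were Cox6a1, Cox6b1, Cox6c and Cox8a with either hairpin. Cox7a2l, which links complexes III and IV in supercomplexes, rose from 144, 139 and 142 TPM to 208, 183 and 199 TPM with the control hairpin, a log2 difference of 0.46 (SE 0.0561, limma adjusted p = 2.23e-05), and by 0.44 with the knockdown hairpin.

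Complex V gave 3 members higher and 8 (47.1%) lower with the control hairpin, and 4 and 7 (41.2%) with the knockdown hairpin. These shares were near the 44.0% and 46.1% lower among genes of at least 50 TPM. Atp5a1, Atp5b, Atp5d, Atp5g1, Atp5g3, Atp5l and Atp5pb were lower with both. They include the alpha and beta chains and members of the c ring and the peripheral stalk, and the stalks also held members called higher. Atp5b stood at 896, 947 and 929 TPM in control tumors, all below control culture, and its log2 difference was -0.37 (SE 0.067, limma adjusted p = 0.000428). The genes for the c subunit differed in size of change. Atp5g1 fell to 258, 297 and 264 TPM in control tumors (log2 difference -0.81) and Atp5g3 to 461, 474 and 433 TPM (-0.58), while Atp5g2 stood at 25.2, 27.7 and 31.5 TPM (0.25, limma adjusted p = 0.0445) and overlapped its culture values. Atp5g2 lost its call without control culture library 2 (0.18) or 3 (0.24), without control tumor library 2 (0.26) or 3 (0.17), with no filter, with median-of-ratios scaling (0.13) and in a fit of its own 6 libraries. Atp5e, the epsilon subunit of the central stalk, rose by 0.30 and 0.38 on the log2 scale, and Atp5h, the d subunit of the peripheral stalk, by 0.20 and 0.21. With median-of-ratios scaling Atp5h lost its call with both hairpins (0.08 and 0.18) and Atp5e with the control hairpin (0.18). Atp5h lost it also without control culture library 2 (0.16) or 3 (0.18), control tumor library 2 (0.20) or 3 (0.20), knockdown culture library 1 (0.19) or 2 (0.17) or knockdown tumor library 2 (0.15). Atp5g1, Atp5g2, Atp5g3, Atp5b, Atp5e and Atp5h were for these contrasts picked after their values were seen.

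The 25 members called with neither hairpin lay between -0.21 and 0.12 with the control hairpin and between -0.13 and 0.13 with the knockdown hairpin. They included Ndufa6, Ndufa7, Ndufs4, Ndufs7 and Ndufv2 of complex I and Atp5c1, Atp5j2, Atp5md and Atp5o of complex V. In simulated data for the control contrast a log2 change of 0.5 was called in 58% of changed genes. That simulation changed few genes, while the real contrast called most genes, including members that differed by 0.20. The 58% therefore does not carry over to these 25, and small differences could still have been missed.

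Genes that build or feed the chain were next counted by list, beside the 24.6% and 27.9% of all genes called lower with the control and the knockdown hairpin. Among genes of at least 50 TPM 44.0% and 46.1% were called lower. Of the 23 complex IV assembly factors tested, 4 were called higher and 13 lower with the control hairpin, and 3 and 11 with the knockdown hairpin. Cox14 fell by 1.14 and by 1.41, and Lrpprc, which stabilizes mitochondrial messenger RNAs, by 1.12 and by 1.28. Of 17 complex I assembly factors, 10 were lower and 1 higher with the control hairpin and 12 and 2 with the knockdown hairpin, and Ndufaf4 fell by 1.77 and by 1.94. Of 4 complex II factors 1 was lower and 1 higher with either hairpin, of 6 complex III factors 3 and 5 were lower, and of 5 complex V factors 3 were lower and 1 higher with either. Of 13 electron carriers and subunits with other names, 10 were lower and 0 higher with the control hairpin and 9 and 1 with the knockdown hairpin. Cyc1, the cytochrome c1 partner of Uqcrh, fell by 1.04 and by 1.13. Among 17 genes of the tricarboxylic acid cycle 11 and 12 were lower and 0 higher, and Idh3a fell by 1.21 and by 1.26. Of 15 regulators of mitochondrial gene expression tested, 3 were lower and 2 higher with the control hairpin, and 6 and 1 with the knockdown hairpin. The factor gene Nrf1 rose by 0.37 and 0.23 and Pprc1, a coactivator of the same program, fell by 0.72 and by 1.01. Of the 13 mitochondrially encoded subunits, 6 were lower and 1 higher with the control hairpin and 7 and 2 with the knockdown hairpin. There mt-Nd2 fell by 1.17 and by 0.98 while mt-Co1 rose by 0.62 and 0.75. Listed levels of some of these 13 varied widely, as given above, so their counts are uncertain. The shares lower were 20.0% and 40.0% for the regulators and 25.0% with either hairpin for the complex II factors, so neither list stood clearly above all genes with the control hairpin. For the mitochondrially encoded subunits, which are abundant, the shares were 46.2% and 53.8%, near those of genes of at least 50 TPM. The genes named in this paragraph kept their direction and call with median-of-ratios scaling. That scaling left 1 complex IV factor, 1 regulator and 0 complex II factors higher and 6 regulators lower with the control hairpin, 1 complex I factor higher with the knockdown hairpin, and 0 complex V factors higher with either.

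The restricted isoforms were next compared with their common partners, since TPM is per length and the pair can be summed. Ndufa4l2, a relative of Ndufa4 known to be induced by hypoxia, was listed at 0, 0.34 and 0.08 TPM in control culture and at 30.5, 41.8 and 43.2 TPM in control tumors. It stood at 0.09, 0 and 0.07 TPM in knockdown culture and at 26.0, 38.3 and 32.8 TPM in knockdown tumors. No culture library came near a tumor library. Its share of the summed Ndufa4 and Ndufa4l2 was 0.0233% ± 0.0297 (SD, n = 3) in control culture and 11.8% ± 2.75 (SD, n = 3) in control tumors, while Ndufa4 itself was lower in tumors. The log2 difference of Ndufa4l2 was 5.12 with the control hairpin and 4.98 with the knockdown hairpin, given as a description since the rule fixed its direction.

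Cox4i2, the oxygen-sensitive form of Cox4i1 known from lung, stood at 0.11, 0.11 and 0.34 TPM in control culture and at 4.96, 7.05 and 8.12 TPM in control tumors. It stood at 0, 0.11 and 0.10 TPM in knockdown culture and at 7.22, 7.12 and 5.28 TPM in knockdown tumors. Its values in the tissues did not overlap, yet it made up only 0.806% ± 0.183 (SD, n = 3) of the pair in control tumors. Cox7a1, the heart and muscle form of Cox7a2, stood at 3.05, 3.07 and 3.93 TPM in control culture and at 18.0, 15.4 and 12.3 TPM in control tumors. Its share of the pair was 1.23% ± 0.176 (SD, n = 3) in control culture and 6.40% ± 0.615 (SD, n = 3) in control tumors. The log2 difference was 1.88 for Cox7a1 (SE 0.144, limma adjusted p = 4.28e-07) and 2.69 for Cox4i2, the latter as a description alone. The corresponding values of the knockdown contrast were 2.22 and 2.82.

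Ndufa4l2 and Cox4i2 are also known as transcripts of pericytes, the mural cells of small vessels. The summed level of 8 mural cell markers was 0.05 to 0.17 TPM in culture, with Higd1b at 0 in control culture and Higd1b and Kcnj8 at 0 in knockdown culture. It was 81.7 to 107 TPM in control tumors and 48.7 to 61.0 TPM in knockdown tumors. Markers of endothelium (6 genes) summed to 0.27 to 0.75 TPM in culture and 41.5 to 89.5 TPM in tumors, and those of fibroblasts (6 genes) to 1.09 to 1.89 TPM and 706 to 1469 TPM. Their part in the isoform levels was not tested.

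Cox6b2 was listed at 0, 0 and 0.21 TPM in control culture and at 0 in every knockdown culture library. It stood at 1.40, 2.14 and 2.37 TPM in control tumors and at 1.44, 0.97 and 1.97 TPM in knockdown tumors, against 589 to 717 TPM of Cox6b1 in the tumors. Cox6a2, the heart and muscle form of Cox6a1, was the restricted form that ran the other way. It stood at 2.78, 1.66 and 1.89 TPM in control culture and at 0.63, 0.60 and 0.51 TPM in control tumors, with a log2 difference of -0.97 (SE 0.270, limma adjusted p = 0.00772). With the knockdown hairpin it stood at 2.38, 2.01 and 3.00 TPM in culture and at 2.30, 0.38 and 1.54 TPM in tumors. The knockdown groups overlapped, and the log2 difference of -0.62 was not called (limma adjusted p = 0.0655). It was called without knockdown tumor 1 (-0.89, adjusted p = 0.0110) and with the replicate number as a block (adjusted p = 0.0402). Knockdown tumors 1 and 3 held the higher Cox6a2 values, and without both the value was -1.33, which rests on 1 knockdown tumor library and is given with no test. Skeletal muscle markers (12 genes) summed to 103, 16.0 and 79.4 TPM in knockdown tumors 1, 2 and 3, against 3.49 to 17.0 TPM in control tumors and 2.81 to 4.91 TPM in culture. Cox8b, a muscle form below the minimum, was above 0 only in knockdown tumors 1 and 3, at 0.0959% and 0.0502% of its pair with Cox8a. The part of muscle tissue in these values was not tested.

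**Figure D3:**
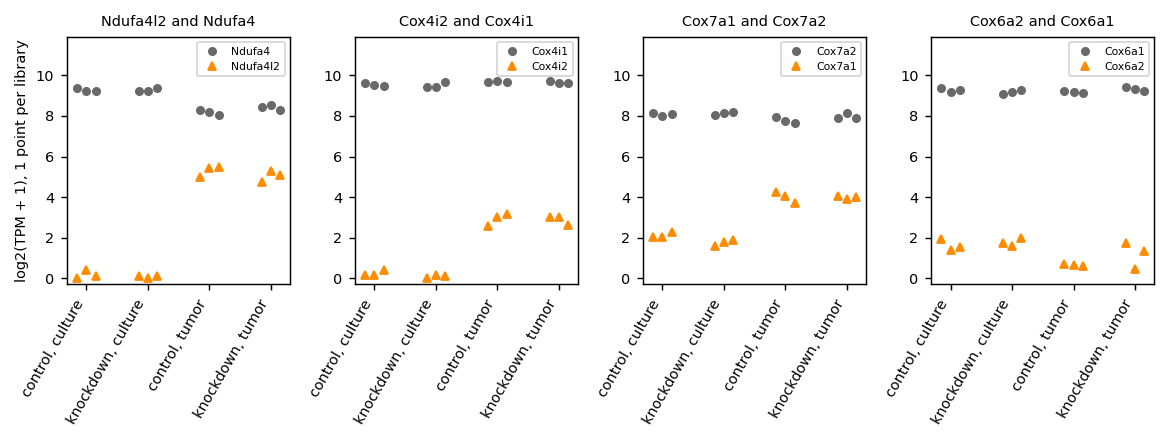
Levels of 4 restricted isoforms (orange triangles) and their common partners (gray circles) on the log2(TPM + 1) scale, with 1 point per library and the 4 groups along the horizontal axis. Ndufa4l2, Cox4i2 and Cox7a1 are higher in every tumor library than in every culture library, while Cox6a2 is low in control tumors and split among knockdown tumors.

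The knockdown of St3gal3 was then compared with the control hairpin in culture. The subunits were close in the 2 groups, and 0 of the 80 members tested were called (0.0148% of 13492 genes were called higher and 0.0148% lower, 4 genes in all). At an unadjusted p under 0.05 there was 1 member (1.25%), by limma, against 3.42% of all genes tested. Values in all knockdown libraries lay above all controls for 1 member, where 5.25% of all genes did, and below for 4, where 2.45% did. The 4 were Uqcrfs1, Uqcrc1, Cox7a1 and Atp5b, and the 1 was Sdhd, all named here after their values were seen. The median log2 difference was 0.01, against 0.02 for all genes tested. Complex medians ran from -0.01 in complex III to 0.02 in complexes I and II.

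The largest difference in culture was that of Uqcrfs1, given above, at 142 ± 5.91 TPM (SD, n = 3) with the control and 99.4 ± 13.0 TPM (SD, n = 3) with the knockdown hairpin. The log2 difference was -0.52 (SE 0.0986), with a limma p of 0.00109 before and 0.518 after adjustment, and the lower value was seen in 3 of 3 libraries. The largest positive difference was 0.20 for Atp5g2, at 28.5, 25.2 and 27.2 TPM against 25.9, 21.0 and 23.0 TPM, which overlapped. Cox7a1 stood at 2.00, 2.44 and 2.74 TPM against 3.05, 3.07 and 3.93 TPM, and its share of the pair with Cox7a2 was 0.845% ± 0.0880 (SD, n = 3) against 1.23% ± 0.176 (SD, n = 3). These shares did not overlap. The exact two-sided permutation p of 0.1 is the smallest that 3 against 3 libraries can give, and it was 0.55 after adjustment over the 11 isoform shares tested. In simulated data for this comparison 25% of genes changed by 0.5 and 86% of genes changed by 1 on the log2 scale were called, so changes of the size seen here would mostly have been missed.

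**Figure D4:**
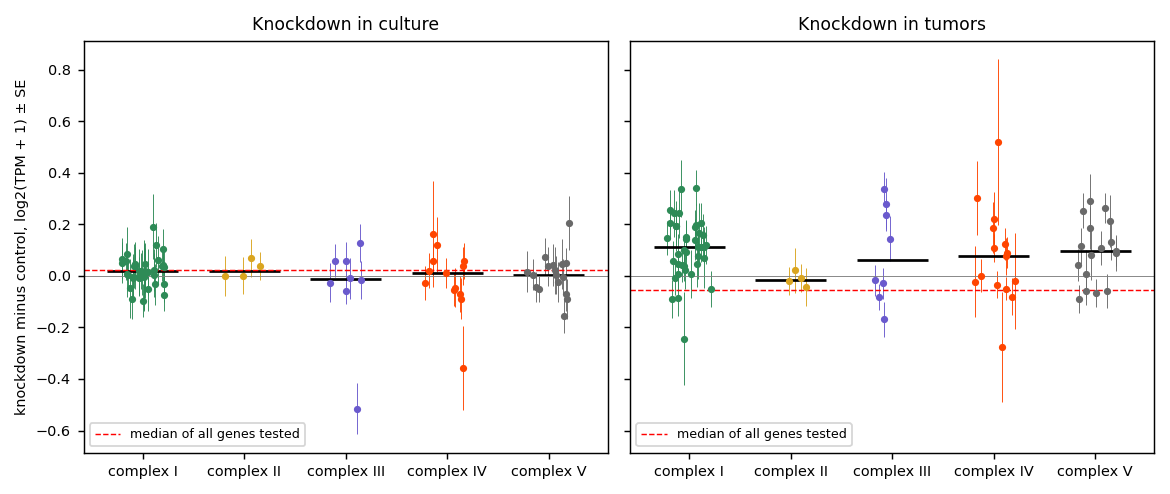
Log2 difference between knockdown and control on the log2(TPM + 1) scale for each tested subunit, with its standard error, by complex, in culture (left, 80 genes) and in tumors (right, 83 genes). Black bars are medians of a complex and the red dashed line is the median of all genes tested. Most points in culture lie near 0 with Uqcrfs1 lowest at -0.52, and most in tumors lie above the dashed line.

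In tumors the knockdown groups leaned higher, with small differences, and again no member passed the test. Of 83 members 0 were called, where 1.07% of 14915 genes were called higher and 0.436% lower. At an unadjusted p under 0.05 there were 18 members, 17 higher and 1 lower, which is 21.7% of members against 18.7% of all genes. Among genes of at least 50 TPM the share was 26.2%, so the members lay below other abundant genes in this count. The difference was positive for 61 of the 83, against 39.6% of all genes, and the median was 0.09 against -0.05. Among genes of at least 50 TPM 43.8% were positive, with a median of -0.03. Knockdown tumors lay wholly above control tumors for 17 members, where 9.81% of all genes did, and wholly below for 4, where 14.9% did. By complex, 34 of 39 were positive in complex I, 1 of 4 in complex II, 4 of 8 in complex III, 9 of 15 in complex IV and 13 of 17 in complex V.

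The members with the smallest p in tumors were Uqcrq, Ndufa1 and Atp5j, picked after their values were seen. Uqcrq stood at 228, 233 and 209 TPM in knockdown tumors and at 174, 185 and 171 TPM in control tumors, and Ndufa1 at 163, 172 and 156 TPM against 129, 136 and 122 TPM. Their groups did not overlap, and both were higher in 3 of 3 knockdown tumors by 0.34 on the log2 scale (limma adjusted p = 0.0622 and 0.0626). Atp5j, the coupling factor F6 of the ATP synthase stalk, stood at 172, 180 and 164 TPM against 146, 141 and 142 TPM, a log2 difference of 0.26 (limma adjusted p = 0.0855). With all 12 libraries in one fit these 3 passed (adjusted p = 0.0205, 0.0114 and 0.0268), and with a filter of 1 TPM in 3 libraries Uqcrq alone passed (0.0496). Atp5l and Uqcr10 followed at 0.25 and 0.24 (limma adjusted p = 0.120 and 0.122). The 1 member lower at an unadjusted p under 0.05 was Uqcrh, at 399, 399 and 383 TPM against 482, 417 and 431 TPM. The extremes were Cox6a2 at 0.52 (SE 0.321, limma adjusted p = 0.421), which is high in knockdown tumors 1 and 3, and Cox6b2 at -0.28 (SE 0.212, limma adjusted p = 0.515). Uqcrfs1 differed by -0.03 in tumors, and by 0.03 with median-of-ratios scaling.

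Isoform shares in tumors overlapped between the hairpins. Ndufa4l2 took 8.60% ± 1.35 (SD, n = 3) of its pair in knockdown tumors, against 11.8% ± 2.75 (SD, n = 3) in control tumors (exact permutation p = 0.3, 0.55 adjusted over 11 shares). Cox7a1 took 5.60% ± 0.768 against 6.40% ± 0.615 (SD, n = 3; exact permutation p = 0.3). Cox4i2 took 0.804% ± 0.114 against 0.806% ± 0.183 (SD, n = 3; exact permutation p = 1). Over the same tumors, all 8 mural cell markers were lower with the knockdown hairpin and 3 of them were called by limma (2 with median-of-ratios scaling). Of all genes 0.436% were called lower. The 6 endothelial markers were lower with 0 called. The 4 tested epithelial markers of HM1 were lower with 0 called, and all 4 lay wholly below the controls. Of all genes tested in this comparison 39.6% were higher, 14.9% lay wholly below the controls and 9.81% wholly above. The 10 muscle markers tested were higher with 0 called. Of the 8 leukocyte markers 6 were higher, 5 of them wholly above the controls, with a median log2 difference of 0.34 and 0 called (1 with median-of-ratios scaling). Of the 6 fibroblast markers 4 were lower with 0 called, and the part of these cell types in the subunit values was not tested.

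The subunit messages are short, and the difference in tumors moved with the length listed for the gene. Members under 600 bases had a median log2 difference of 0.14, with 24 of 29 positive. The median was 0.11 from 600 to under 1000 bases (28 members), 0.05 from 1000 to under 1700 bases (18 members) and -0.05 at 1700 bases or more (8 members, 2 positive). Other genes of at least 50 TPM had medians of 0.07, 0.05, 0.01 and -0.08 in the same classes. The order by length was alike in the members and in other abundant genes, and the median of the members lay above that of the other genes in each class. In culture the 4 medians of the members lay between 0.01 and 0.02 and those of other genes between 0.02 and 0.04. The part of transcript length in the tumor differences was not tested.

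**Figure D5:**
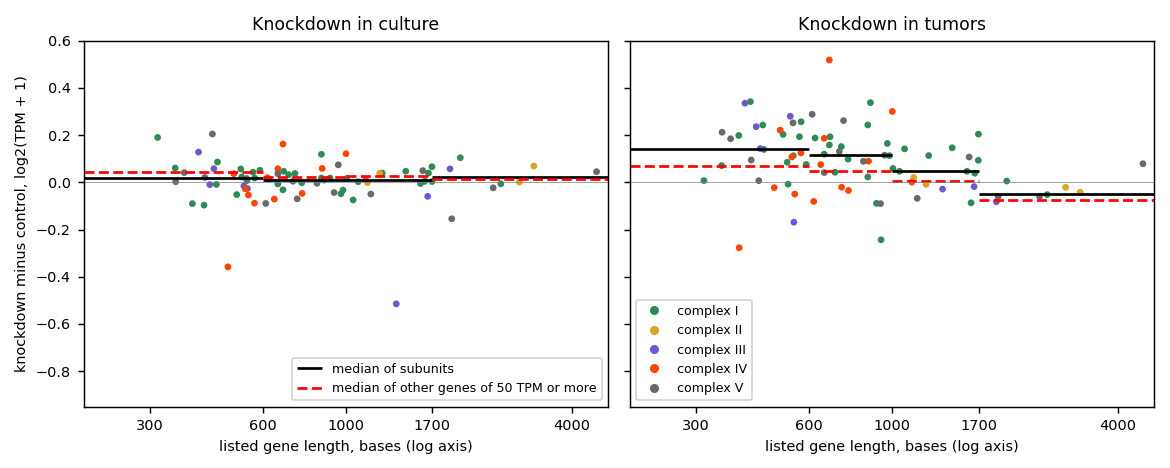
Log2 difference between knockdown and control on the log2(TPM + 1) scale against the listed gene length in bases (logarithmic axis), in culture (left) and in tumors (right), with 1 point per subunit colored by complex. Black lines are medians of the subunits in 4 length classes and red dashed lines those of other genes of at least 50 TPM. In tumors both step down from the shortest class (0.14 and 0.07) to the longest (-0.05 and -0.08), and in culture both stay near 0.

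The difference of the knockdown effect between tumors and culture was tested directly over all 12 libraries. No member passed, 0 of 83, where 0.571% of 15407 genes were called with a higher effect in tumors and 0.195% with a lower one. At an unadjusted p under 0.05 in limma there were 8 members (9.64%). The share was 11.1% over all genes and 12.3% over those of at least 50 TPM. The difference had a median of 0.09, against -0.06 for all genes and -0.03 for those of at least 50 TPM. The difference was positive for 63 of 83, against 39.0% and 42.4% of these genes. Uqcrfs1 had the largest at 0.49 (SE 0.117, limma adjusted p = 0.101) and Ndufa1 the smallest p at 0.44 (SE 0.0893, limma adjusted p = 0.0528). Atp5j differed by 0.33 (limma adjusted p = 0.107), and Atp5g2 had the lowest value at -0.20 (limma adjusted p = 0.635). Without knockdown culture library 1, Uqcrfs1 passed at 0.59 (adjusted p = 0.0238), and with a filter of 1 TPM in 3 libraries Ndufa1 passed (adjusted p = 0.0455). The lists of assembly factors, carriers, mitochondrially encoded subunits, regulators and tricarboxylic acid cycle genes had 0 members called in this test and in both knockdown comparisons.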

How the data were processed

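RNA sequencing tables of 12 libraries were used, 3 in each of 4 groups taken from the sample titles. Per the file headers, the authors deposited for each library each gene's identifier, name, length and TPM, rounded to 2 decimals. RSEM, HISAT, fastp and GRCm39 are named in the submitters' processing notes, without versions or settings, and whether counting used strand is not given. RSEM shares reads between similar transcripts, so near-identical copies are uncertain. TPM keeps no depth, so no counting interval is given.

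The authors' lists hold 56061 genes for culture and 55878 for tumors. Fits over both tissues used TPM rescaled to 1000000 over the 55416 shared identifiers, without assembled loci. The plan named limma for tables without counts. It was run (version 3.58.1, R 4.3.3, trend and robust options on) on log2(TPM + 1) for every gene whose mean reached 1 TPM in a fitted group, and calls are at an adjusted p under 0.05 (Benjamini-Hochberg over all genes, two-sided). Differences on this scale understate changes of low genes. The knockdown comparisons used 6 libraries each, the others all 12. Isoform shares were tested with exact two-sided permutation. Promoters came from RefSeq (GRCm38.p6), and the Ndufb4c copy was aligned with edlib on GENCODE M21 transcripts.

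The members, the 16 gene lists and the tests were chosen with earlier results of these data known. Members named with all values were, by rule, the highest and lowest of each complex, up to 4 called members per direction by smallest p, the extreme differences and the restricted isoforms with their partners. Members named outside it are said to be picked after their values were seen. On simulated data the procedure was tested per comparison. At a log2 change of 1 it recovered 86% in culture, 76% in tumors, 90% between tissues and 64% for the difference of effects. The simulations changed few genes, unlike the real contrasts between tissues. Alternatives were a pseudocount of 0.1, 2 other filters, median-of-ratios scaling, a replicate block, leaving out each library, members of at least 5 TPM, other sets of libraries, and TPM as deposited. Same-numbered libraries did not deviate together (correlations of -0.16 to 0.05, against -0.14 to 0.15 for differently numbered ones). The check gave no sign of pairing, but with 3 libraries per group it cannot exclude it. The levels of 1 complex I member are not reported here one by one. Python 3.11.15 with matplotlib 3.10.9 drew the figures.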

Additional observations from a re-analysis of the deposited data

How the results depend on the processing

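Of the values and counts that answer a comparison, 269 recomputed under the alternatives were counted as unchanged, and the others are given here. A count was unchanged within a set fold of the reported one, and a member median within the SD between libraries. An isoform share was unchanged if its sign held, so it could still move in size. Leaving out 1 library, the difference of the Cox7a1 share in tumors ran from -1.15 to -0.358 percentage points, against -0.80 with all libraries. Among the 269, the member median in culture was near 0 and turned from 0.01 to -0.01 with median-of-ratios scaling. In tumors the knockdown comparison called 1 member higher with a filter of 1 TPM in 3 libraries and 3 with all 4 groups in one fit. The control contrast of tumors with culture called 8 members higher with median-of-ratios scaling, with a member median of -0.32, and the difference of the knockdown effect had a median of 0.19 with that scaling and 1 member called higher with the filter of 1 TPM in 3 libraries. Uqcrfs1 in tumors turned from -0.03 to 0.0273 with median-of-ratios scaling. The Cox4i2 share in tumors, which differed by -0.002 percentage points between the hairpins, became 0.0137 as a difference of log2 values. The cause was not tested in any of these.

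Leaving out each library in turn, the member median ran from -0.0267 to 0.0530 in culture, where it changed sign, 0.0701 to 0.127 in tumors, -0.236 to -0.178 in the control contrast of tumors with culture, -0.174 to -0.116 in the knockdown contrast and 0.0506 to 0.124 for the difference of effects. Members called higher numbered 9 to 12 and lower 39 to 43 in the control contrast, 11 to 13 and 32 to 38 in the knockdown contrast, 0 and 0 in both knockdown comparisons, and 0 to 1 and 0 for the difference, where the 1 was found without knockdown culture library 1. The Cox4i2 share in tumors moved between -0.101 and 0.0803 percentage points. Among recomputed values of members called in the text, 680 kept their call and 37 lost it, all of these for Uqcrfs1, Sdhc, Atp5e, Atp5g2 and Atp5h and most of them given above.

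With the replicate number as a block, 0 members were called in either knockdown comparison, 11 higher and 41 lower in the control contrast of tumors with culture, and 13 and 36 in the knockdown contrast. The block changed the call of Cox6a2 in the knockdown contrast (-0.62, adjusted p = 0.0402) and of Atp5g2 in the control contrast (0.25, adjusted p = 0.0526), and of no other named member. Whether the numbers pair the libraries is not known. TPM without counts gives no depth, so low members such as Cox6b2, Cox4i2 and Cox6a2 rest on an unknown number of reads. Tissue and any batch of the libraries cannot be told apart.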

Other observations

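Of the 13 names dropped as pseudogenes, 2 reached 1 TPM in some group. Ndufa12-ps stood at 17.7, 21.4 and 12.1 TPM in control culture, 15.3, 16.0 and 16.9 TPM in knockdown culture, and in tumors at 10.7, 13.7 and 16.3 TPM with the control and 12.4, 15.3 and 19.0 TPM with the knockdown hairpin. Cox7c-ps1 stood at 0.71, 0.32 and 0.66 TPM in control tumors and at 1.35, 1.87 and 2.09 TPM in knockdown tumors, without overlap, and at 0.76 to 2.50 TPM in culture. RSEM divides reads between such copies and their parent genes, and the split was not tested.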
